A study of Mus musculus with 6 samples.

Results

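The epithelial NADPH oxidase genes examined here are Duox2, Duoxa2, Nox1, Noxo1 and Cyba, 5 of the 24930 genes in the deposited table, chosen by symbol. NADPH oxidases are membrane enzymes that pass electrons from NADPH to oxygen and so make superoxide or hydrogen peroxide on purpose. In the gut lining DUOX2 releases hydrogen peroxide at the luminal surface, where it takes part in defence against microbes, and it needs its maturation factor DUOXA2 to leave the endoplasmic reticulum. NOX1 makes superoxide and works as a complex with p22phox, the membrane partner encoded by Cyba, with the organizer NOXO1, the activator NOXA1 and the small GTPase RAC1.

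Messenger RNA was measured in crypt epithelium of mice, in 3 libraries of β-catenin GOF/+ crypts, which carry a single mutant allele of β-catenin induced 4 days earlier, and in 3 control libraries. The sources used here do not give the Cre driver or other inducing agent, the strain, age or gut segment, or the number of animals per library. P-values therefore reflect variation among these libraries only, part of which may be technical. Xist and Y-linked genes marked GOF/+ replicate 1 and control replicates 1 and 2 as male and the other 3 libraries as female. Values are the authors' normalized abundance per gene, called units below. The absolute depth is unknown, and the relative number of reads per unit ranged from 0.886 in GOF/+ replicate 3 to 1.42 in control replicate 3. Ctnnb1, which encodes β-catenin, averaged 261 ± 24.4 units in GOF/+ and 256 ± 15.1 units in control libraries (SD, n = 3 each), a value that does not separate the mutant from the normal allele.

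The tissue label was checked against marker genes. All 7 epithelial markers were present in all 6 libraries, with Epcam between 675 and 1054 units in GOF/+ and between 594 and 783 units in control libraries. The small-intestinal transcription factor gene Gata4 stood between 33.2 and 48.0 units in GOF/+ and between 34.9 and 46.6 units in control libraries. Of the colon markers reported here, Car1 and Hoxd13 were listed at 0 in all 6 libraries and Hoxb13 and Aqp8 reached at most 0.131 and 0.159 units.

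Duox2 and Duoxa2 are neighbours on mouse chromosome 2 and point away from each other, with RefSeq start sites 673 bases apart. Their promoter windows are shown because the levels of both genes varied together across the libraries, and those of Nox1 and Noxo1 to set a catalytic subunit beside its organizer. Each window runs from 250 bases before to 50 bases after the RefSeq start site in GRCm38.p6, 5′ to 3′ on the gene's own strand. Capitals mark matches on either strand to any of 6 short motifs. These were the TATA box, searched as TATAAA, the TCF/LEF motif, searched as CTTTGAT, the STAT motif, searched as TTCNNNGAA, the AP-1 motif, searched as TGANTCA, the GATA motif, searched as GATAA, and the CDX motif, searched as TTTATG; no 2 matches overlapped. The windows lie at chr2:122298178-122298477 on the minus strand (Duox2), chr2:122298650-122298949 on the plus strand (Duoxa2), chrX:134111805-134112104 on the minus strand (Nox1) and chr17:24695984-24696283 on the plus strand (Noxo1).
Duox2: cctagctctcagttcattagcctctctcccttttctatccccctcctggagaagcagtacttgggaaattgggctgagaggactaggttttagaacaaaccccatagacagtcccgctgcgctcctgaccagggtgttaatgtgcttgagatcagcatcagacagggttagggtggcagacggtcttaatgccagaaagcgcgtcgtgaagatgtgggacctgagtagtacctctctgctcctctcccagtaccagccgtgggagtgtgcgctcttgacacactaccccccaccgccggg
Duoxa2: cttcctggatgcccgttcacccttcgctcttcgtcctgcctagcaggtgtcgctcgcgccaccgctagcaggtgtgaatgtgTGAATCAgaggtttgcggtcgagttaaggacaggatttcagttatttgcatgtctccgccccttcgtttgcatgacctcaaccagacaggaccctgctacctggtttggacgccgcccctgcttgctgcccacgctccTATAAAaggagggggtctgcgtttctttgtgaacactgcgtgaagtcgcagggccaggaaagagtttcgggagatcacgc
Nox1: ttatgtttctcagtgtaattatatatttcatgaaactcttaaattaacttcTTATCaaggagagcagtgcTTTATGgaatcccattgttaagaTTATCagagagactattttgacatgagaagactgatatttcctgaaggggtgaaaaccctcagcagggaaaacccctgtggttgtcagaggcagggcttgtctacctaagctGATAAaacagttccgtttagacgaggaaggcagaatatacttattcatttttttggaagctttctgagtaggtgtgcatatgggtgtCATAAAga
Noxo1: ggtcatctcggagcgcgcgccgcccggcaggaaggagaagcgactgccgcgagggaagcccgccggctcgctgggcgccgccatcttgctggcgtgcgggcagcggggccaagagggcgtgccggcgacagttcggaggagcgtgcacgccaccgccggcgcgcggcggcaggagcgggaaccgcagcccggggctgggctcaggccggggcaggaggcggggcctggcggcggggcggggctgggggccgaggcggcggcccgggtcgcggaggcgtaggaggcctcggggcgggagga

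The 172 bases between the Duox2 and Duoxa2 windows are not shown. The Duoxa2 window held a TATA box match whose first base is 30 bases before the start site and an AP-1 match 168 bases before it. The Duox2 window held none of the 6 motifs, and the bases between the windows were not searched. Among 32851 promoter windows of the same length, 13.6% held the TATA box letters and 7.81% the AP-1 letters. The Nox1 window was poor in GC, at 38% with 2 CpG dinucleotides, and held 3 GATA matches and 2 CDX matches, letters found in 25.4% and 11.9% of all windows. The Noxo1 window had 80.3% GC and 46 CpG dinucleotides, more CpG than 98.4% of all windows, and held none of the 6 motifs. The Cyba window was not printed: it had 9 CpG dinucleotides, 60.7% GC and 2 GATA matches. The TCF/LEF letters, the motif bound by the nuclear partners of β-catenin, were in none of the 5 windows and in 3.73% of all windows, and the STAT letters were in none of the 5 and in 8.30% of all. These matches describe letters and not bound sites.

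The first question was how abundant each oxidase gene was in crypts. Cyba, the shared membrane partner, averaged 81.6 units over the 6 libraries and Duox2, the peroxide-releasing enzyme, 71.4 units. Duoxa2 averaged 45.9 units and Noxo1 35.9 units. Nox1 was the lowest, at 5.02 units, so the catalytic subunit of the superoxide-making complex stood below its organizer and below its membrane partner in every library. Because low values fell in steps that shrank with transcript length, the units were read as abundance per length and can be set side by side between genes. Among 11837 genes tested, the mean of Nox1 was at percentile 25.0 and that of Cyba at percentile 91.1. The order of neighbours was not the same in all libraries: Duox2 was above Cyba in GOF/+ replicate 3 and control replicate 1 and below it in the other 4, and Duoxa2 was below Noxo1 in GOF/+ replicate 1 and control replicate 3 and above it in the other 4.

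**Figure D1:**
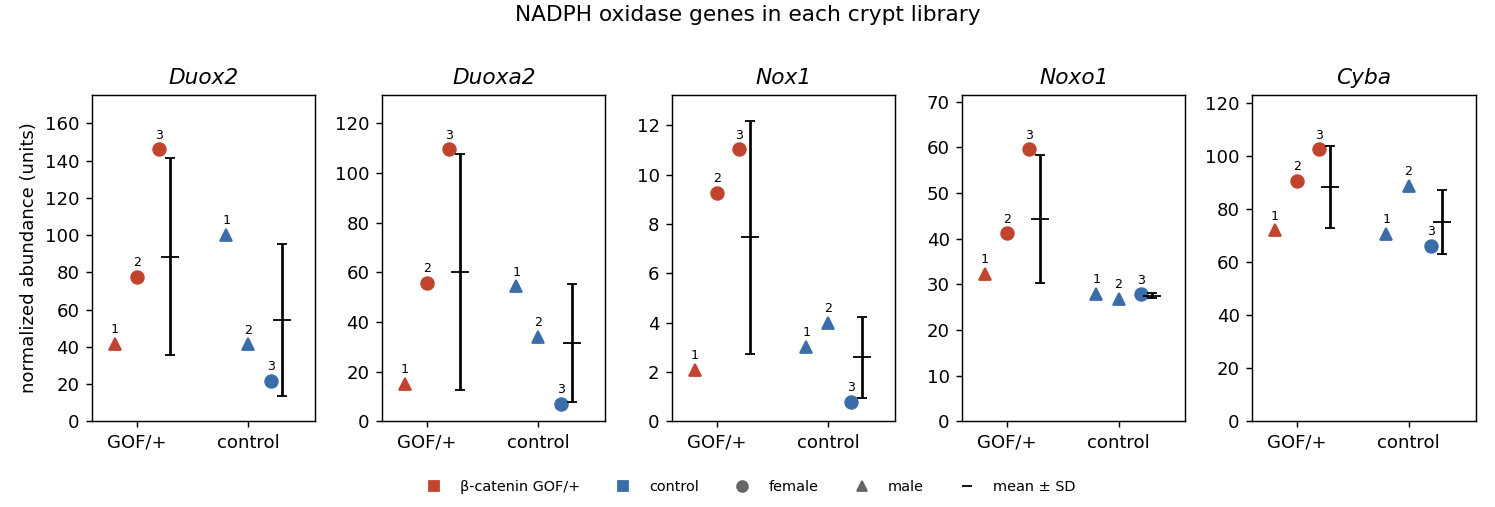
Normalized abundance in units (y axis, from 0) of the 5 genes in 3 β-catenin GOF/+ libraries (left) and 3 control libraries (right); numbers are replicates, circles female and triangles male libraries, and bars the mean ± SD. The 3 GOF/+ values of Noxo1 lie above the 3 control values, while the groups overlap for the other 4 genes.

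The second question was whether these genes differed between mutant and control crypts. Noxo1 was the 1 member whose groups did not overlap, where 8.34% of all tested genes lay higher and 8.37% lower in every mutant library, and 0 of the 5 passed the test over all genes. Each of the 5 had a higher mean in GOF/+ libraries, by 1.18-fold for Cyba to 2.88-fold for Nox1, where 47.3% of all tested genes had a positive log2 difference. Over all 11837 genes, limma called 2 at an adjusted p under 0.05, 0.0169% of them, both lower and neither an oxidase gene (Gm8580 and Gpx2-ps1). At an unadjusted p under 0.05 in limma, 1 of the 5 members was higher and 0 lower, where 4.72% of all tested genes were higher and 3.59% lower. In bulk RNA fewer cells of a type and less RNA per cell cannot be told apart.

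Duox2 had 41.6, 77.6 and 146 units in GOF/+ replicates 1, 2 and 3, and 100.1, 41.2 and 21.8 units in control replicates 1, 2 and 3. The highest library was mutant and the lowest control, but control replicate 1 lay above 2 of the mutant libraries, and GOF/+ replicate 1 and control replicate 2 were nearly equal. The means were 88.4 ± 53.1 units in GOF/+ and 54.4 ± 40.8 units in control libraries (SD, n = 3 each). The log2(value + 1) difference was 0.78 ± 0.63 (SE), with a 95% interval of -0.71 to 2.27 (adjusted p = 0.644 in limma), and an exact permutation test over the libraries gave p = 0.40 (two-sided). That test cannot go below 0.10 with 3 libraries against 3.

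Duoxa2, whose product brings DUOX2 to the cell surface, had 15.0, 55.7 and 109.5 units in the 3 GOF/+ libraries and 54.3, 33.9 and 6.82 units in the 3 controls. The order of libraries resembled that of Duox2, with GOF/+ replicate 3 highest and control replicate 3 lowest, and the groups overlapped. Duoxa2 spanned a 16.0-fold range over the 6 libraries, the widest among the 5 genes, against 6.71-fold for Duox2. The log2 difference was 0.91 ± 0.91 (SE), with a 95% interval of -1.24 to 3.06 and an adjusted p of 0.697 in limma (exact permutation p = 0.50). Duoxa2 overlaps Duoxa1 on the opposite strand by 695 bases in GRCm38, and use of strand in the quantification is not stated. Duoxa1 stayed at or below 0.509 units in all 6 libraries.

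The ratio of Duox2 to Duoxa2 describes how the enzyme and its maturation factor stood to each other. It was 2.78, 1.39 and 1.33 in the GOF/+ libraries and 1.84, 1.22 and 3.19 in the controls. The groups overlapped, and the ratio was highest in control replicate 3 and GOF/+ replicate 1, which were also the 2 libraries lowest in Duoxa2.

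Nox1, the superoxide-making subunit, had 2.08, 9.25 and 11.0 units in the GOF/+ libraries and 3.02, 3.97 and 0.768 units in the controls. The values of GOF/+ replicates 2 and 3 stood above every control, while GOF/+ replicate 1 lay below 2 of the 3. The means were 7.45 ± 4.73 units in GOF/+ and 2.59 ± 1.65 units in control libraries (SD, n = 3 each). The log2 difference was 1.14 ± 0.60 (SE), with a 95% interval of -0.28 to 2.56 and an adjusted p of 0.589 in limma (exact permutation p = 0.30). Nox1 shares bases with other genes in GRCm38. Of these, Cstf2 on the opposite strand shares 399 bases and averaged 16.9 ± 1.94 units in GOF/+ and 16.3 ± 3.03 units in control libraries. Xkrx, on the same strand, shares 13034 bases, and Arl13a, on the opposite strand, shares 20528. Xkrx and Arl13a stayed at or below 0.740 and 0.0652 units.

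Noxo1, the organizer that lets NOX1 work without an outside stimulus, had 32.2, 41.1 and 59.5 units in GOF/+ libraries and 27.8, 26.8 and 27.8 units in control libraries. Every mutant library was above every control library. The control libraries lay within 1.01 units of each other, and the mutant libraries spread over 27.3 units. Means were 44.3 ± 13.9 units in GOF/+ and 27.5 ± 0.566 units in control libraries (SD, n = 3 each), a 1.61-fold ratio. The log2 difference was 0.63 ± 0.22 (SE), with a 95% interval of 0.10 to 1.16, an unadjusted p of 0.0270 and an adjusted p of 0.589 in limma (exact permutation p = 0.10, the smallest this design allows). Noxo1 ranked at position 518 of 11837 genes by p.

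Noxo1 overlaps Tbl3, a gene on the opposite strand, by 2581 bases in GRCm38. Tbl3 had 26.0, 26.7 and 17.1 units in GOF/+ libraries and 20.9, 18.5 and 19.5 units in controls (log2 difference 0.21, adjusted p = 0.674 in limma). The library highest in Noxo1 was the lowest in Tbl3. Stromal markers also separated the groups as Noxo1 did: all 8 of 8 were higher in every mutant library. Of these, 5 were tested, and all 5 lay higher, where 8.34% of all tested genes did. The summed level of the 8 was 16.3 to 37.2 units in GOF/+ and 4.97 to 7.99 units in control libraries. Pdgfra was listed at 0 in all 3 controls, and Col1a2 and Lum in control replicate 2. Their part in the Noxo1 difference was not tested.

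Cyba, whose product p22phox stabilizes NOX1 and also the phagocyte oxidase, had 71.8, 90.5 and 102 units in GOF/+ libraries and 70.4, 88.6 and 66.1 units in controls. Its levels were the steadiest of the 5 genes, with a 1.55-fold range, and the groups overlapped. The log2 difference was 0.23 ± 0.19 (SE), with a 95% interval of -0.23 to 0.68 and an adjusted p of 0.655 in limma (exact permutation p = 0.20). The ratio of Cyba to Noxo1, not planned beforehand, was 2.23, 2.20 and 1.72 in GOF/+ libraries and 2.53, 3.30 and 2.38 in controls. The groups did not overlap, as for Noxo1 itself. The planned ratio of Noxo1 to Nox1 was 15.5, 4.44 and 5.40 in GOF/+ libraries and 9.20, 6.75 and 36.1 in controls, with overlap. The other ratios taken also overlapped. In GRCm38 Cyba overlaps Gm20388, on the opposite strand, by 8155 bases, and Gm20388 has no values here. Cyba is also expressed by leukocytes. The 8 leukocyte markers summed to 18.8 to 66.8 units in GOF/+ and 19.3 to 46.2 units in control libraries, and 2 of the 8 were higher in every mutant library. Of the 6 that were tested, 1 was, where 8.34% of all tested genes were. Adgre1 alone among the 8 was listed at 0, in control replicate 2. The part of leukocytes in Cyba was not tested.

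The third question was how the 5 genes varied together. GOF/+ replicate 3 was the highest library for all 5, and control replicate 3 the lowest for 4, with Noxo1 the exception. Among the controls alone, control replicate 3 was lowest for Duox2, Duoxa2, Nox1 and Cyba, while Noxo1 varied little. Likeness was measured as the root mean square distance between 2 genes' log2(value + 1), each centred on its own mean over the 6 libraries. The distance was 0.49 between Duox2 and Duoxa2, 0.55 between Duoxa2 and Nox1 and 0.55 between Duox2 and Nox1.

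Among 11836 other tested genes, Duox2 was the nearest to Duoxa2 and Nox1 the second nearest. Seen from Duox2, Duoxa2 was at position 22 and Nox1 at position 49. Nox1 and its organizer Noxo1 were 0.68 apart, with Noxo1 at position 133 from Nox1 and Nox1 at position 10225 from Noxo1. Distances were not scaled for how widely a gene varied. Noxo1 lay nearer to a flat pattern, a constant level over the libraries, at 0.40, than to Nox1. Duoxa2 lay 1.27 from a flat pattern. The closeness of Duoxa2 and Duox2 is a description of 6 libraries, which share depth and cell makeup.

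The 3 genes nearest to Duox2 were Lama5, a laminin chain gene (distance 0.25), Ass1, which encodes argininosuccinate synthase (0.35), and the stress response gene Gadd45g (0.37). Lama5 had 2.37, 3.87 and 7.93 units in GOF/+ libraries and 5.94, 1.73 and 1.27 units in controls. Duoxa2 had the small nucleolar RNA gene Snord17 next after those, at 0.64. The nearest to Nox1 were Etv4, an ETS transcription factor gene (0.48), Siva1 (0.48) and Gtse1 (0.49). Those nearest to Noxo1 were Cox17, which encodes a copper chaperone of the mitochondrion (0.04), Ctu2 (0.05) and Urah (0.06). Cox17 had 101, 131 and 176 units in GOF/+ libraries and 85.3, 86.8 and 86.3 units in controls, the same order in the mutants and the same narrow controls as Noxo1.

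**Figure D2:**
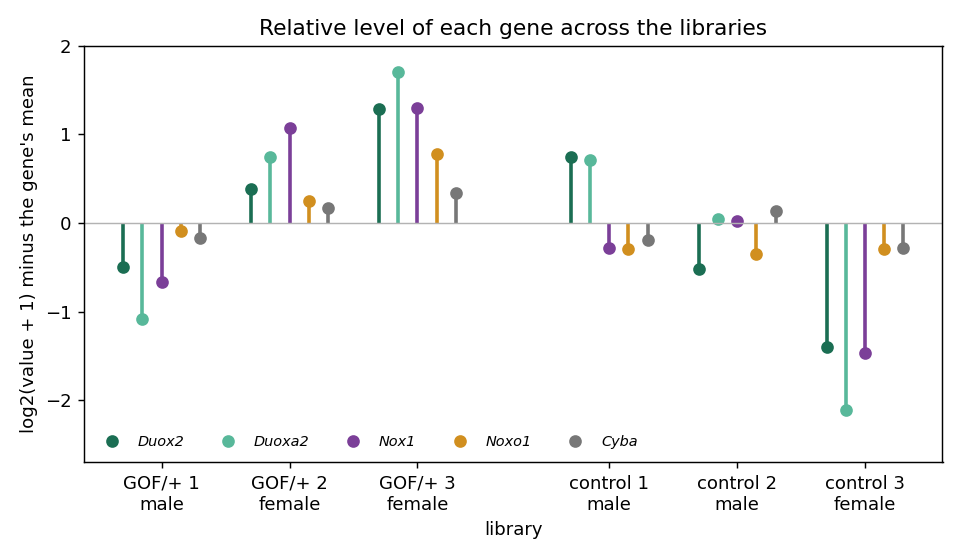
Log2(value + 1) of each gene minus its own mean over the 6 libraries (y axis), by library (x axis, β-catenin GOF/+ left, control right, with sex). GOF/+ replicate 3 is above the mean for all 5 genes, and Duox2, Duoxa2 and Nox1 fall farthest below it in control replicate 3, at -1.40, -2.11 and -1.46.

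Sex was not balanced between the groups, so the differences were also taken within each sex, with 2 GOF/+ libraries against 1 control among females and 1 GOF/+ library against 2 controls among males. Among females, the log2 difference was 2.24 for Duox2, 3.34 for Duoxa2, 2.65 for Nox1, 0.81 for Noxo1 and 0.54 for Cyba. Among males it was -0.62, -1.46 and -0.54 for Duox2, Duoxa2 and Nox1, 0.23 for Noxo1 and -0.13 for Cyba. Noxo1 was therefore the 1 member with the same sign in both sexes. That sign follows from its groups not overlapping and adds nothing to it. The single female control is also the library lowest in Duox2, Duoxa2 and Nox1, so sex and library cannot be told apart. In the planned limma fit with sex as a covariate, 0 of the 5 members were called. The log2 difference there was 0.81 for Duox2, 0.94 for Duoxa2, 1.06 for Nox1, 0.52 for Noxo1 and 0.20 for Cyba. A term for the difference between sexes, added after seeing the data, was called for 0 of 11837 genes in limma (254 at an unadjusted p under 0.05). For Duoxa2 it was -4.80 ± 0.72 (SE, adjusted p = 0.951 in limma) and for Nox1 -3.19 ± 0.44 (adjusted p = 0.903 in limma).

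**Figure D3:**
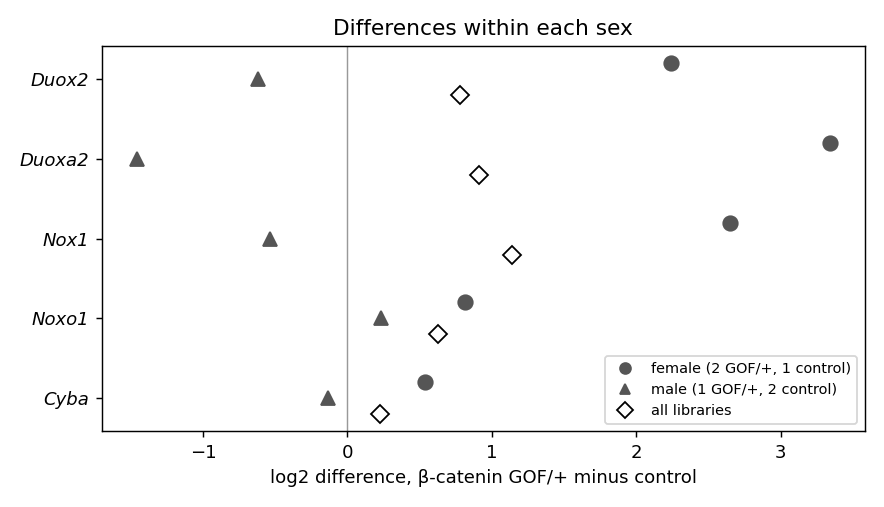
Log2(value + 1) difference, β-catenin GOF/+ minus control (x axis), for each gene among female libraries (circles), male libraries (triangles) and all 6 libraries (diamonds). Duox2, Duoxa2, Nox1 and Cyba lie on opposite sides of 0 in the 2 sexes. Noxo1 lies above 0 in both, as it must when its groups do not overlap.

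The remaining NADPH oxidase genes were then examined. Of 11 further genes of the family and its regulators, 7 were tested, 5 had a higher and 2 a lower mean, and 0 passed. Of the 7, 1 lay higher and 0 lower in every mutant library, where 8.34% and 8.37% of all tested genes did. The median log2 difference was 0.24, against -0.02 over all tested genes. It was 0.11 without GOF/+ replicate 3, 0.16 without control replicate 2 and -0.04 with array weights. Rac1, the GTPase that switches on the NOX1 complex, was the 1 without overlap, at 158, 143 and 251 units in GOF/+ and 128, 140 and 126 units in control libraries (log2 difference 0.44 ± 0.23, adjusted p = 0.589 in limma). Noxa1, the activator of NOX1, had a lower mean in the mutants, at 17.1, 23.9 and 10.5 units in GOF/+ and 19.8, 22.8 and 16.5 units in control libraries (log2 difference -0.25 ± 0.29, adjusted p = 0.737 in limma). GOF/+ replicate 3, the highest library for Nox1 and Noxo1, was the lowest for Noxa1, and without it the log2 difference of Noxa1 was 0.05, the opposite sign. Without the same library that of Rac1 was 0.19.

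Cybc1, a chaperone for assembly of the phagocyte oxidase, averaged 16.4 ± 3.89 units in GOF/+ and 13.1 ± 1.24 units in control libraries (SD, n = 3 each). Rac3, a relative of Rac1, averaged 3.27 ± 0.686 and 2.64 ± 0.802 units in the same groups. The scaffold genes Sh3pxd2a and Sh3pxd2b, relatives of Noxo1 that act at invasive membrane protrusions, averaged 1.62 ± 0.0841 and 1.29 ± 0.439 units in GOF/+ and 1.98 ± 0.577 and 0.877 ± 0.127 units in control libraries. Nrros, a negative regulator of reactive oxygen species in myeloid cells, averaged 1.26 ± 1.15 units in GOF/+ and 0.869 ± 0.0324 units in control libraries. The alternative catalytic genes were near or at 0. Duox1 had 1.19, 0.218 and 0.197 units in GOF/+ and 0.242, 0.0914 and 0.368 units in control libraries. Nox3 was listed at 0 in all 6 libraries, and Nox4 at 0 in all but GOF/+ replicate 3, where it had 0.0216 units. Duox2 was thus the dual oxidase gene and Nox1 the NOX-type gene with the highest mean in these crypts.

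The oxidase of phagocytes uses Cybb as its catalytic subunit, with cytosolic factors such as those of Ncf1 and Ncf4 and the GTPase gene Rac2. Cybb had 0.240, 0.343 and 2.11 units in GOF/+ and 0.359, 0.0727 and 0.609 units in control libraries, below Nox1 in each of the 6. Of these 4 genes, 2 were tested, 0 passed and 0 were without overlap. Ncf1, Ncf4 and Rac2 averaged 2.70 ± 2.57, 1.10 ± 1.16 and 6.97 ± 5.69 units in GOF/+ and 1.66 ± 0.812, 0.641 ± 0.221 and 6.38 ± 1.74 units in control libraries (SD, n = 3 each). GOF/+ replicate 3 was the highest library for Cybb, Ncf1, Ncf4 and Rac2.

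**Figure D4:**
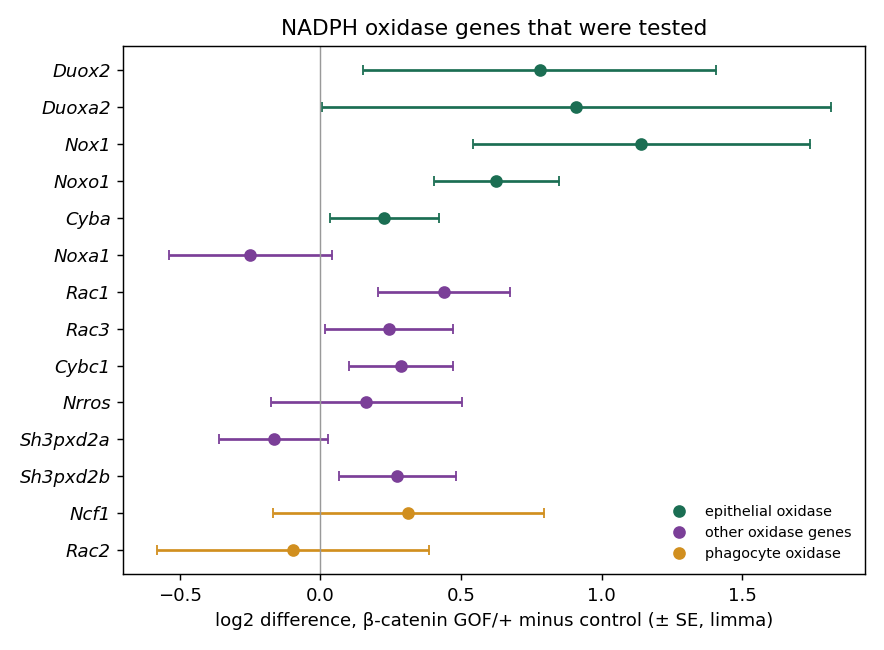
Log2(value + 1) difference, β-catenin GOF/+ minus control, with its SE from limma (x axis) for 14 tested NADPH oxidase genes, grouped by colour. The 5 epithelial members lie between 0.23 and 1.14, Noxa1 lies at -0.25, and no gene passed the test.

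Enzymes that remove superoxide and peroxide showed no common direction. Of 18 such genes, 17 were tested, 8 had a higher and 9 a lower mean, 0 passed, and the median log2 difference was -0.02, as over all genes. Gpx2, the glutathione peroxidase of the gut epithelium, had 733, 1156 and 2027 units in GOF/+ and 912, 720 and 613 units in control libraries (adjusted p = 0.590 in limma). Its highest and lowest libraries were those of Duox2. Txnrd1, a thioredoxin reductase gene, had 110, 111 and 121 units in GOF/+ and 90.6, 93.4 and 96.2 units in control libraries, without overlap (log2 difference 0.28 ± 0.13, adjusted p = 0.589 in limma). Prdx5, a peroxiredoxin gene, averaged 175 ± 82.7 units in GOF/+ and 103 ± 22.1 units in control libraries. Gpx4, which reduces lipid peroxides, averaged 180 ± 15.4 and 146 ± 23.6 units in the same groups, without overlap. Of the 17 tested genes, 2 lay higher and 0 lower in every mutant library, where 8.34% and 8.37% of all tested genes did. The genes named so far, picked by smallest p, all had a higher mean. Among the 9 with a lower mean, Prdx4, Cat and Gpx1 had log2 differences of -0.50, -0.49 and -0.38. Outside this list, Gpx2-ps1, by its symbol a pseudogene of Gpx2, was called lower. It had 0.834, 0.614 and 0.563 units in GOF/+ and 77.7, 28.3 and 27.6 units in control libraries. Whether reads were shared between it and Gpx2 was not tested. Peroxidases that use hydrogen peroxide in secretions or granules were low: Lpo, Mpo and Epx did not reach 1 unit on average. Pxdn averaged 1.52 ± 1.03 units in GOF/+ and 1.67 ± 1.58 units in control libraries.

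Receptors and signalling genes known to act upstream of Duox2 or Nox1 in infection and inflammation, 13 in all, had 10 tested members, of which 8 had a higher and 2 a lower mean and 0 passed. Their median log2 difference was 0.30, and it was 0.12 without GOF/+ replicate 3 and 0.47 without GOF/+ replicate 2. Stat3 averaged 37.8 ± 11.9 units in GOF/+ and 25.5 ± 5.07 units in control libraries, the adaptor gene Myd88 24.0 ± 10.3 and 16.4 ± 0.959 units, the interleukin-22 receptor gene Il22ra1 26.3 ± 9.27 and 19.0 ± 2.22 units, and Tlr2 2.03 ± 0.874 and 1.16 ± 0.379 units (adjusted p of 0.589 to 0.600 in limma). Of the 10 tested, 1 (Myd88) lay higher and 0 lower in every mutant library, where 8.34% and 8.37% of all tested genes did.

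Of 12 epithelial defence genes, several of which are induced together with Duox2 by microbes, 10 were tested, 7 had a higher and 3 a lower mean, and 0 passed. The median log2 difference was 1.09, and it was 0.12 without GOF/+ replicate 3 and 1.70 without GOF/+ replicate 2. Saa3, which encodes a serum amyloid A protein, had 5.56, 17.0 and 13.0 units in GOF/+ and 0.205, 0.199 and 0.288 units in control libraries (log2 difference 3.26 ± 0.36, adjusted p = 0.0935 in limma), and unlike Duox2 it was not high in control replicate 1. Saa1 averaged 15.1 ± 22.6 units in GOF/+ and 0.469 ± 0.426 units in control libraries. It had 41.2 units in GOF/+ replicate 3, and 2.17 and 1.84 units in GOF/+ replicates 1 and 2. The antimicrobial lectin genes Reg3b and Reg3g averaged 11470 ± 6176 and 6098 ± 3981 units in GOF/+ and 4351 ± 4917 and 1820 ± 1562 units in control libraries (SD, n = 3 each). The 3 genes with a lower mean were Retnlb, Pigr and Ccl20, with log2 differences of -0.60, -0.52 and -0.15. Of the 10 tested, 2 (Saa1 and Saa3) lay higher and 0 lower in every mutant library, where 8.34% and 8.37% of all tested genes did.

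Markers of gut segments and cell types also differed between the libraries. The ileal genes Fabp6 and Slc10a2, a bile acid binding protein and the bile acid transporter, did not overlap between the groups. Fabp6 had 174, 388 and 1101 units in GOF/+ and 156, 5.74 and 74.2 units in control libraries, and Slc10a2 had 7.89, 5.35 and 28.4 units in GOF/+ and 5.07, 2.38 and 3.13 units in control libraries. Onecut2, a transcription factor gene of the proximal small intestine, was lower in every mutant library, at 2.39 ± 0.756 units in GOF/+ and 4.78 ± 1.38 units in control libraries. Lct, of the same list, had 154, 43.8 and 105 units in GOF/+ and 36.8, 52.9 and 139 units in control libraries, with overlap. Its mean was higher in the mutants (log2 difference 0.46), and Gata4 also overlapped. Of the 5 small-intestinal markers, all tested, 2 lay higher and 1 lower in every mutant library. Over all tested genes, 8.34% lay higher and 8.37% lower. The 8 enterocyte markers summed to 4034 to 19841 units in GOF/+ and 2400 to 6494 units in control libraries. Of these 8, all tested, 7 had a higher and 1 a lower mean, with a median log2 difference of 1.20. Ada was the 1 that lay higher in every mutant library, where 8.34% of all tested genes did. The 5 neutrophil markers summed to 3.66 to 14.8 units in GOF/+ and 2.49 to 3.41 units in control libraries, with S100a8 and S100a9 listed at 0 in all 3 controls. Without that pair, a sum taken after seeing the data, the other 3 summed to 2.17 to 4.90 units in GOF/+ and 2.49 to 3.41 units in control libraries, which overlap. The summed Paneth cell markers, 31163 to 140078 units in GOF/+ and 78074 to 302803 units in control libraries, were highest in control replicate 1. All 6 of these markers had a lower mean in the mutants, with a median log2 difference of -1.18. Of the 6, 0 lay lower in every mutant library, where 8.37% of all tested genes did. The 5 stem cell markers summed to 105 to 819 units in GOF/+ and 546 to 1294 units in control libraries, lowest in GOF/+ replicate 3. Of these, 4 had a lower mean in the mutants (Lgr5, Olfm4, Smoc2 and Ascl2) and 1 a higher mean (Axin2), with log2 differences of -0.54, -1.46, -0.95, -0.26 and 0.24, and Smoc2 was lower in every mutant library. The 6 goblet cell markers summed to 7732 to 10181 units in GOF/+ and 5845 to 9155 units in control libraries. For all of these lists 0 genes passed, and their part in the oxidase values was not tested.

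In the 6 fits that each leave out 1 library, the sign of every member's difference stayed positive and 0 of the 5 were called. For Noxo1 the sign could not turn, since its groups do not overlap. Without GOF/+ replicate 1, the log2 difference was 1.23 for Duox2, 1.68 for Duoxa2, 1.76 for Nox1, 0.83 for Noxo1 and 0.37 for Cyba. The log2 difference of Duox2 was 0.33 without GOF/+ replicate 3, 0.27 without control replicate 3 and 1.35 without control replicate 1. That of Duoxa2 was 0.28, 0.08 and 1.49 in these 3 fits, and that of Nox1 was 0.78, 0.70 and 1.29. Noxo1 was 0.39 without GOF/+ replicate 3 and 0.64 and 0.63 without control replicates 1 and 3, so its difference varied more with the mutant libraries kept than with the controls.

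**Figure D5:**
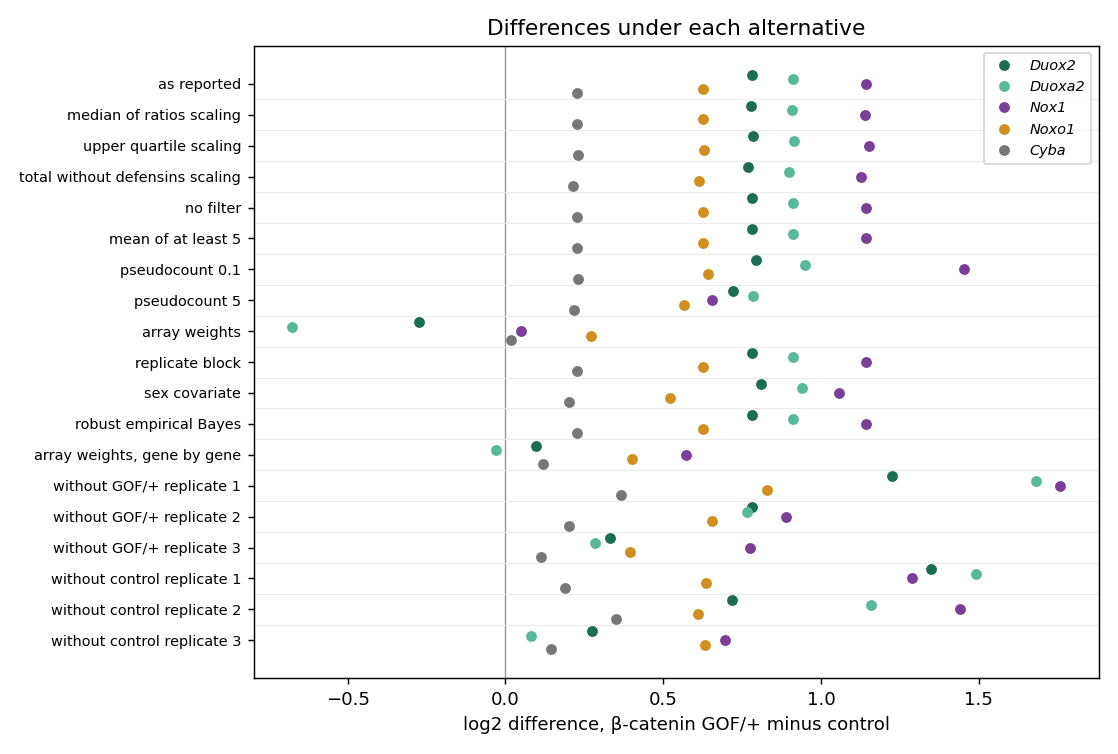
Log2 difference, β-catenin GOF/+ minus control (x axis), of the 5 genes as reported and under 18 alternatives (y axis). Array weights put Duox2 at -0.27 and Duoxa2 at -0.68, and weights estimated gene by gene put Duoxa2 at -0.03; all other points lie above 0.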

How the data were processed

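Poly-T beads were used to select mRNA, and cDNA was randomly primed for Illumina sequencing, per the labels' protocols. The authors deposited a normalized signal for each gene. The tools DESeq2 1.40.1 and kallisto 0.46.1 and the build mm9 are named, with no role or order, in the submitters' processing notes; the annotation is not given in the sources used here. 0% of values above 0 were whole numbers (tolerance 1e-06), so the values are not counts. Median ratios of libraries to their geometric mean were 0.990 to 1.01. Among genes below 0.3 units, the smallest value above 0 had a median of 0.0684 units for transcripts under 1000 bases and 0.0192 units for those over 3000 bases. Counting intervals cannot be given.

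Values were analysed as log2(value + 1) for the 11837 genes that averaged 1 unit or more, with limma 3.58.1 in R 4.3.3 (trended prior variance, a single term for group, Benjamini-Hochberg adjustment over all genes at 0.05). Differences on this scale understate changes of low genes. The 5 members and 16 gene lists were chosen with earlier results of these data known, and lists are described by counts and medians with no set test. Genes named are the members, all further oxidase genes, up to 4 genes of smallest p per other list, and the 3 genes nearest in pattern to each member whose log2 range exceeds 1. Gata4, Car1, Hoxd13, Hoxb13, Aqp8, Ascl2, Prdx4, Cat, Gpx1, Retnlb, Pigr and Ccl20 were named after their values were seen. So were the neighbours of Nox1 and Noxo1, listed zeros and the genes called over all genes. The limma script was tested on simulated data with log2 changes larger than the differences of the 5 members. That test gives no power for differences of their size. Same-numbered libraries had correlations of deviations of -0.29, 0.33 and 0.32, and differently numbered ones of -0.49 to 0.21. These values do not settle whether the numbers mark pairs, and numbers were not taken as pairs. Promoter sequences are from RefSeq (GRCm38.p6; all 5 members matched), a build other than that of the files, and gene overlaps are from GENCODE for GRCm38. 0 value columns lacked a sample. Some genes of the phagocyte oxidase, peroxidase and colon marker lists are not reported here. Exact permutation tests used SciPy 1.17.1, and figures matplotlib 3.10.9.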

Additional observations from a re-analysis of the deposited data

Results flagged for a closer look

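The β-catenin GOF/+ minus control difference of 2 members ran in opposite directions in the sexes, in every library compared. For Duoxa2, both female GOF/+ libraries (55.7 and 109.5 units) were above the female control (6.82 units), and the male GOF/+ library (15.0 units) was below both male controls (54.3 and 33.9 units). The male minus female difference of the log2 differences was -4.80 for Duoxa2. For Nox1, the female GOF/+ libraries had 9.25 and 11.0 units and the female control 0.768 units, while the male GOF/+ library had 2.08 units and the male controls 3.02 and 3.97 units, a male minus female difference of -3.19. In limma the term for this difference had an unadjusted p of 0.000883 for Duoxa2 and 0.000610 for Nox1 and an adjusted p of 0.951 and 0.903, so neither passed over all genes. Sex was read from the libraries themselves, and with 1 female control and 1 male GOF/+ library, sex cannot be told apart from the library.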

How the results depend on the processing

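None of the 5 members passed under any of 18 alternatives. Some of these could not turn a sign. Robust empirical Bayes, the replicate block and a looser or stricter abundance filter left each member's difference as reported. Other scalings gave 1.13 to 1.15 for Nox1, against 1.14 as reported. Of 90 differences 87 were positive, a count that includes those settings and is no measure of robustness. The exceptions came with array weights, which gave -0.27 for Duox2 and -0.68 for Duoxa2, and with weights estimated gene by gene, added after seeing the data because the first estimate stopped before it converged, which gave -0.029 for Duoxa2. The first weights also gave 0.05 for Nox1, 0.02 for Cyba and 0.27 for Noxo1. The 2 sets of weights were 0.23 and 0.29 for GOF/+ replicate 3 and 6.47 and 1.92 for GOF/+ replicate 1. Over the fits without 1 library, the log2 difference was 0.27 to 1.35 for Duox2, 0.08 to 1.68 for Duoxa2, 0.70 to 1.76 for Nox1, 0.39 to 0.83 for Noxo1 and 0.11 to 0.37 for Cyba. Pseudocounts of 0.1 and 5 gave 1.45 and 0.65 for Nox1.

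Of all genes, 0 were called higher and 2 lower. The number higher was 4 with totals scaled without defensins, 1 with either pseudocount, 20 with array weights and 3 with weights gene by gene. The number lower was 7 with array weights, 1 with upper quartile scaling or robust empirical Bayes, and 0 without a filter, with a pseudocount of 5, with the sex covariate or with the replicate block. Without 1 library, 0 to 2 were higher and 0 to 3 lower. The replicate block, with numbers that are not known to pair the samples, called 0 higher and 0 lower genes and 0 members. Of genes in the other lists, 0 were called, but 1 (Saa3) with totals scaled without defensins and with a pseudocount of 0.1, 5 (Saa3, Col1a2, Col3a1, Dcn and Sparc) with array weights, and 0 to 1 without 1 library. No scaling moved the median of all genes by over 0.1. Counting error of low genes such as Nox1 cannot be given, since absolute depth is unknown.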
